A study of Mus musculus with 7 samples.

Results

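The Krt20-positive cells of the pericyte culture were the 59 cells of that library in which at least 1 transcript of Krt20 was counted, of 171 cells in the library and 606 cells in the 7 libraries of the series. They were set against the 48 cells of the same library that had Krt19 but no Krt20, called Krt19-only cells here, and the 64 cells with neither keratin are given for context. The members were chosen by their own counts of Krt20, and the comparison cells by those of Krt19, so both genes were left out of the totals and of the gene comparison. How often the keratins were seen, and splits of the members by their keratin counts, are given as descriptions. In pairs of cells matched for depth, Krt20-positive cells had more Il33, Gda, Gpnmb and collagen VI transcripts than Krt19-only cells. They had hardly any Igfbp3, Fhl1 or Mtap, and not 1 transcript of Perp, Itgb5 or Arhgap36.

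The series asked whether embryonic fibroblasts and pericytes can be turned into oligodendrocyte progenitors by ectopic transcription factors. The pericyte library (PC) held untransduced primary cerebral pericytes from brain of C57BL/6 mice, grown in pericyte medium and given no treatment. The other libraries, used only for context, were pericytes given viruses for Olig2 and Sox10 (PC-2F) or for these factors and Nkx6.2 (PC-3F), embryonic fibroblasts given those factors (MEF-2F and MEF-3F), untransduced embryonic fibroblasts (MEF) and primary oligodendrocyte progenitors (pOPC), all from C57BL/6 mice. The transduced cells had been moved to progenitor medium. Each population was 1 library of trypsin-dissociated cells captured in droplets, with 3′ transcript ends counted by unique molecular identifiers (UMIs, which mark single captured molecules). The UMI counts used here were decoded from deposited values that are not counts as they stand, by a reading that no label states. The labels do not give the number of animals or the purity of the pericyte culture.

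Many barcodes of the pericyte library were copies of another. Of its 296 barcodes of 18 bases, 119 pairs were alike but for the first base, A in one and G in the other. The log2 levels of the 2000 most abundant genes correlated by at least 0.717 within these pairs (median 0.803), and by at most 0.642 between any other barcodes (median 0.333). Each pair was therefore counted as 1 cell, through the barcode with more UMIs; the copy held a median of 84.1% of its UMIs. In 37 pairs the kept barcode had Krt20, and in 33 of these the copy had it too, while in 7 pairs only the copy had it. The copies were found after the data had been seen, and with every barcode counted the members were 99 of 290. In the 7 libraries together, 1140 barcodes came to 622 cells when those alike from the fourth base on were counted once. The cause of the copies was not tested.

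Keratins are the intermediate filament proteins of epithelia. Krt20 is a type I keratin best known from the lining of the gut and the urinary tract and from Merkel cells of the skin, and Krt19 is a type I keratin of simple epithelia and of mesothelium. Pericytes are mural cells that wrap capillaries within the basement membrane, are marked by Pdgfrb and Cspg4, and are not known for keratins. In the GRCm38 (mm10) assembly both genes lie on the minus strand of chromosome 11, Krt20 from 99428403 to 99438150 and Krt19 from 100140810 to 100148665.

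Krt20 was seen more often in deeper cells, so that the membership rule also selected for depth. Krt20-positive cells held a median of 5769 UMIs (1055 to 17157), against 3850 in Krt19-only cells (743 to 14713) and 2089 in cells with neither keratin (615 to 11284). The share of Krt20-positive cells was 34.5% (59 of 171; 27.4 to 42.1, exact binomial 95% interval, as are all intervals on shares, which cover counting error only). By quartile of UMIs per cell, from the shallowest to the deepest, it was 9.30%, 33.3%, 37.2% and 58.1%. Krt19 was seen in 18.6%, 42.9%, 48.8% and 41.9% of the cells of those quartiles. With each cell thinned to 1000 UMIs, 19 of 154 cells (12.3%; 7.59 to 18.6) still had Krt20, and the shallower cells of the 171 were left out.

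**Figure D1:**
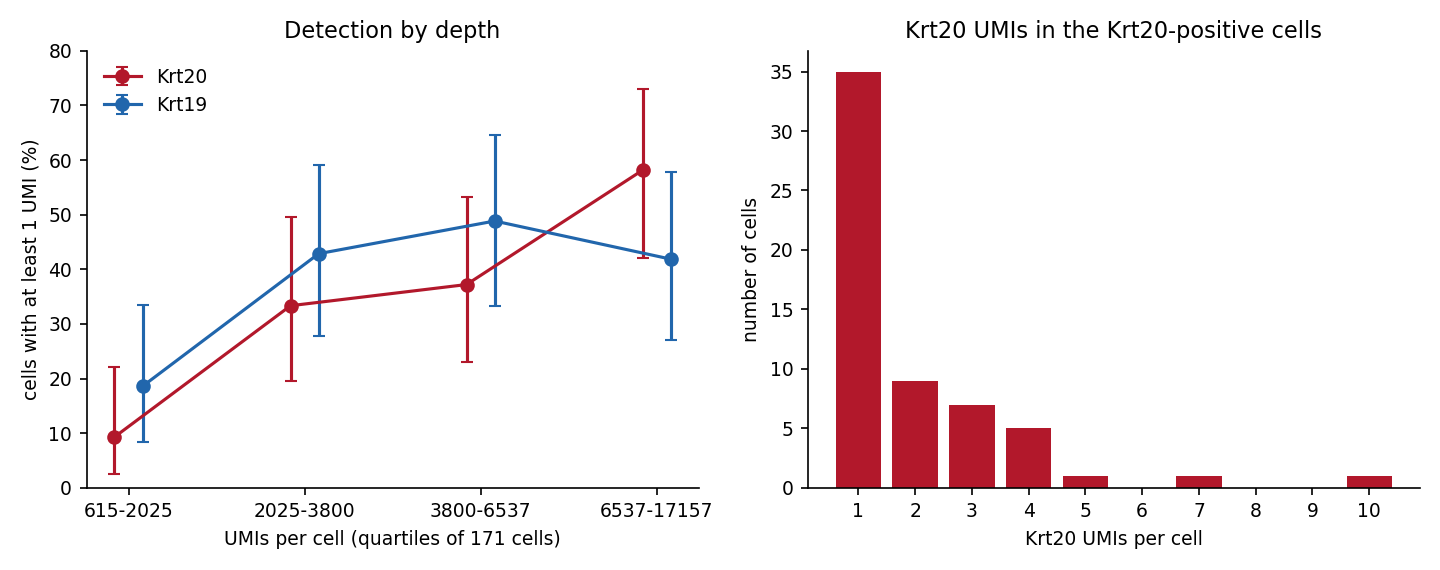
Detection of the keratins in the pericyte library. Left, the share of cells with at least 1 UMI of Krt20 or Krt19 (percent, with exact binomial 95% intervals) in the depth quartiles of the 171 cells; Krt20 climbs from 9.30% to 58.1%. Right, the number of Krt20-positive cells by their Krt20 UMI count; 35 of the 59 cells rest on 1 UMI.

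Most members sat at the edge of the rule. Of the 59 cells, 35 had 1 Krt20 UMI, 9 had 2, 7 had 3, 5 had 4, and the other 3 had 5, 7 and 10, for a total of 116 UMIs. Just outside the rule on depth, 6 barcodes held fewer than 500 UMIs, the highest 494, and none of them had a Krt20 UMI; the lowest barcode kept held 615. In the other 6 libraries 1 Krt20 UMI was found, in 1 MEF cell, and a count of 0 allows a share of cells with a UMI of up to 3.16% in PC-2F and up to 6.12% in MEF-2F. A library for which Krt20 was not listed was read as 0, an inference that no label states. No barcode of the pericyte library occurred in another library. In droplet data free RNA can give a UMI to a cell that does not express a gene, and its part in the Krt20 of the 35 cells with 1 UMI was not tested.

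The keratins overlapped in part. Krt19 was present in 17 of 59 Krt20-positive cells (28.8%; 17.8 to 42.1), against 48 of 112 Krt20-zero cells (42.9%; 33.5 to 52.6). The library consists of 2 blocks of barcodes, which the labels do not explain and which are not replicates; all copies lay in the second. In the second block, with 132 of the 171 cells, Krt19 was in 6 of 37 Krt20-positive cells (16.2%; 6.19 to 32.0) and 42 of 95 Krt20-zero cells (44.2%; 34.0 to 54.8). In the first block it was in 11 of 22 Krt20-positive cells (50%; 28.2 to 71.8) and 6 of 17 Krt20-zero cells (35.3%; 14.2 to 61.7), with intervals that overlap widely. Krt20 itself was seen in 37 of 132 cells of the second block (28%; 20.6 to 36.5) and 22 of 39 cells of the first (56.4%; 39.6 to 72.2). Of the other keratins listed, Krt7 had 1 UMI in Krt20-positive cells and 4 in Krt19-only cells of the matched pairs, and Krt13 had 10 and 13. Krt8, Krt18, Upk3b, Wt1 and Rgs5 were not analysed here.

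The comparison itself used 40 Krt20-positive cells, each paired with 1 Krt19-only cell of its own block that differed by at most 0.5 in log2 UMIs; 34 pairs came from the second block and 6 from the first. The match was not perfect: the paired Krt20-positive cells still had a median of 5695 UMIs against 4743.5 in their partners, with totals of 237261 and 213809 UMIs outside the keratins. Levels are given as CPM, the UMIs of a gene per 1000000 UMIs summed over the cells of a group. All cells came from 1 culture, so cells are not replicates, no test was made and no p-value is given. The range printed after a fold is its exact 95% interval, which again holds counting error alone. A gene was called when its levels differed at least 2-fold, the interval of the fold excluded 1, and it had at least 50 CPM and 10 UMIs in 1 of the groups.

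Of 4950 genes measured in the matched cells, 279 were called higher in Krt20-positive cells (5.64%) and 244 lower (4.93%), and the median log2 ratio over all measured genes was 0.05. Counts of list members called in the matched cells are to be set against these shares. Against the cells with neither keratin all cells were used, with neither depth nor block matched. There 4747 genes were measured, and 98 were higher (2.06%) and 107 lower (2.25%). Pairing only cells within 0.1 log2 of each other, an alternative chosen after seeing the data, left 30 pairs with medians of 5343 and 5235 UMIs and gave 237 higher and 218 lower genes.

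**Figure D2:**
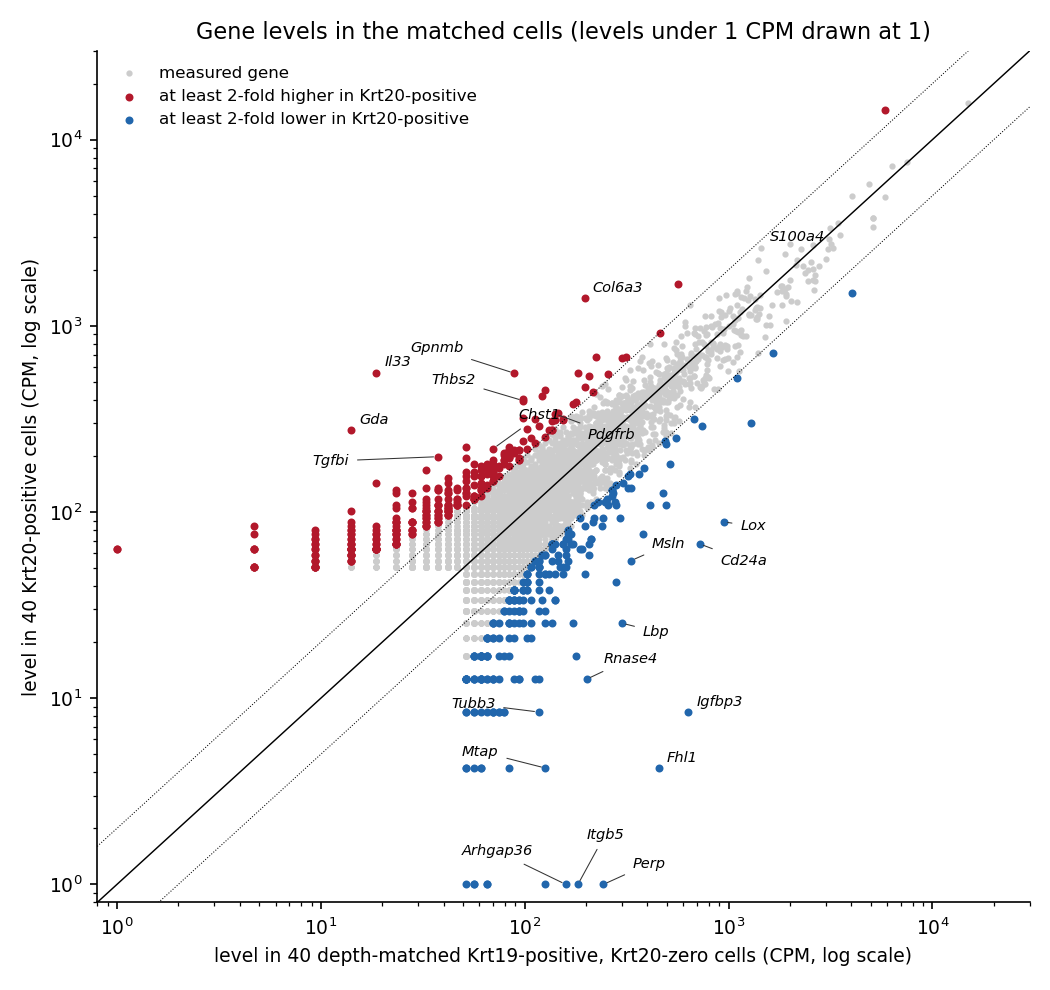
Level of each measured gene in the 40 matched Krt20-positive cells (vertical axis) and in their 40 Krt19-only partners (horizontal axis), in CPM on log scales; the solid line marks equal levels, the dotted lines a 2-fold difference, and red and blue points are the 279 higher and 244 lower genes. Il33 and Gda stand above the diagonal, and Perp, Itgb5 and Arhgap36, with 0 UMIs in the Krt20-positive cells, are drawn at 1 CPM at the bottom.

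Il33, a nuclear alarmin cytokine released by damaged barrier and stromal cells, had the highest ratio of the genes ranked. It lies on chromosome 19 from 29925114 to 29960718. Over all cells its count ran from 0 to 46 UMIs with a median of 1 in Krt20-positive cells, and from 0 to 2 with a median of 0 in Krt19-only cells. It was seen in 30 of 59 Krt20-positive cells, 4 of 48 Krt19-only cells and 14 of 64 cells with neither keratin. In the matched cells it stood at 561 CPM (133 UMIs) in Krt20-positive cells and 18.7 CPM (4 UMIs) in Krt19-only cells, a 29.96-fold higher level (11.4 to 112). Of the 40 cells on each side of the pairs, 16 Krt20-positive and 3 Krt19-only cells had Il33. Single Krt20-positive cells held 46, 30 and 26 of the 133 UMIs, and the interval does not cover such variation between cells. Its log2 ratio was 5.02 in the second block and 2.25 in the first, where 7 UMIs stood against 1.

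Gda, guanine deaminase, turns guanine into xanthine in purine breakdown. It was seen in 29 of 59 Krt20-positive cells, with at most 13 UMIs in a cell, against 4 of 48 Krt19-only cells with at most 2, and in 9 of 64 cells with neither keratin. Its level in the matched cells was 274 CPM (65 UMIs) in Krt20-positive cells and 14 CPM (3 UMIs) in Krt19-only cells, a ratio of 19.5 (6.39 to 97.1). In all, 18 Krt20-positive cells held both Il33 and Gda. Chst1, a Golgi sulfotransferase that acts on keratan sulfate, was seen in 42 of 59 Krt20-positive and 9 of 48 Krt19-only cells, and stood at 219 CPM and 70.2 CPM in the matched cells (3.12-fold higher, 1.73 to 5.97). S100a4, a calcium-binding protein of motile mesenchymal cells, was in 52 of 59 Krt20-positive and 35 of 48 Krt19-only cells. Its matched levels of 2630.0 CPM in Krt20-positive cells and 1449.9 CPM in Krt19-only cells gave a 1.81-fold ratio (1.58 to 2.09), short of the 2-fold call. Gda, Chst1 and S100a4 had been named as markers of these cells from these same data, so their ratios are descriptions.

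The 12 highest ratios held secreted and matrix genes beside membrane and nuclear ones. Col6a3, a chain of collagen VI, the beaded-filament collagen around mural and stromal cells, was found in 56 of 59 Krt20-positive cells with a median of 7 and a highest count of 42 UMIs, against 13 of 48 Krt19-only cells with a median of 0 and a highest count of 11. Its level was 1404 CPM in Krt20-positive and 196 CPM in Krt19-only cells (7.14-fold higher, 5.17 to 10.1). Gpnmb, a transmembrane glycoprotein of melanosomes and lysosomes, was in 45 of 59 and 12 of 48 cells of these groups and stood at 556 CPM and 88.9 CPM (6.26-fold, 3.85 to 10.7). Thbs2, the matricellular thrombospondin 2, was in 44 and 14 cells and stood at 396 CPM and 98.2 CPM (4.03-fold, 2.49 to 6.82). Tgfbi, a matrix protein induced by TGF-beta, was in 29 and 6 cells (5.29-fold, 2.48 to 13), and Serpinf1, pigment epithelium-derived factor, in 31 and 7 cells (5.15-fold, 2.28 to 13.6).

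The other genes of this group were Fhl3 (a LIM-domain protein, 7.66-fold), Lbh (a transcription cofactor, 5.59-fold), Podxl (the surface sialomucin podocalyxin, 5.41-fold), Crip1 (a small LIM-domain protein, 4.34-fold) and Ankrd1 (a nuclear and sarcomeric ankyrin-repeat protein, 4.12-fold). Crip1 had 7 UMIs in Krt20-positive and 6 in Krt19-only cells of the first block, a log2 ratio of only 0.14 there.

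The lowest ratios were more extreme than the highest. Perp, a membrane protein of desmosomes and a p53 target, had 0 UMIs in all 59 Krt20-positive cells, against 53 UMIs in 21 of 48 Krt19-only cells and 9 UMIs in 4 of 64 cells with neither keratin. Itgb5, the integrin beta subunit that pairs with alpha V to bind vitronectin, had 0 UMIs in Krt20-positive cells, against 41 UMIs in 20 Krt19-only cells. Arhgap36, of the GTPase-activating protein family, had 0 UMIs in Krt20-positive cells, against 34 UMIs in 8 Krt19-only cells, 1 of which held 17 of them. A count of 0 in 59 cells allows a share of cells with a UMI of up to 5.08% and a level of up to 8.19 CPM. With the matched Krt20-positive group set at that limit of 3 UMIs, Perp was at least 19.2-fold lower in Krt20-positive cells (243 CPM in Krt19-only cells), Itgb5 at least 14.4-fold lower (182 CPM) and Arhgap36 at least 12.6-fold lower (159 CPM). Perp lies on chromosome 10 from 18845020 to 18857073, Itgb5 on chromosome 16 from 33829665 to 33949338 and Arhgap36 on chromosome X from 49463945 to 49500244.

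Fhl1, a LIM-domain protein on chromosome X, had 1 UMI in Krt20-positive cells and 97 in their matched partners, and was seen in 29 of all 48 Krt19-only cells. Its level was 4.21 CPM in Krt20-positive and 454 CPM in Krt19-only cells, a ratio of 0.00929 (0.000233 to 0.0530). Igfbp3, a secreted carrier of insulin-like growth factors, was seen once each in 2 of 59 Krt20-positive cells and in 12 of 48 Krt19-only cells with up to 52 UMIs, of 135 in all. Its matched levels of 8.43 CPM and 631 CPM gave a ratio of 0.0134 (0.00160 to 0.0492). Rnase4, a secreted ribonuclease, had 3 UMIs in Krt20-positive and 43 in Krt19-only cells of the pairs (ratio 0.0629, 0.0125 to 0.196), of which the first block held 1 on each side.

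Lox, the collagen cross-linking lysyl oxidase, stood at 88.5 CPM (21 UMIs) in Krt20-positive and 945 CPM (202 UMIs) in Krt19-only cells (10.7-fold lower, 6.8 to 17.6), and Cd24a, a glycosylated surface protein, at 67.4 CPM and 720.3 CPM (10.7-fold lower, 6.37 to 19.2). Lbp, the lipopolysaccharide-binding protein, was 11.8-fold lower (5.15 to 33.5). Adm, the vasoactive peptide adrenomedullin, was 10.5-fold lower in the pairs (3.8 to 40.7), though over all cells it had 21 UMIs in Krt20-positive and 38 in Krt19-only cells. Tfpi, the inhibitor of the tissue factor pathway of coagulation, was 6.66-fold lower (3.38 to 14.6). Msln, the mesothelial surface protein mesothelin, stood at 54.8 CPM in Krt20-positive and 332 CPM in Krt19-only cells (6.06-fold lower, 3.33 to 11.9).

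**Figure D3:**
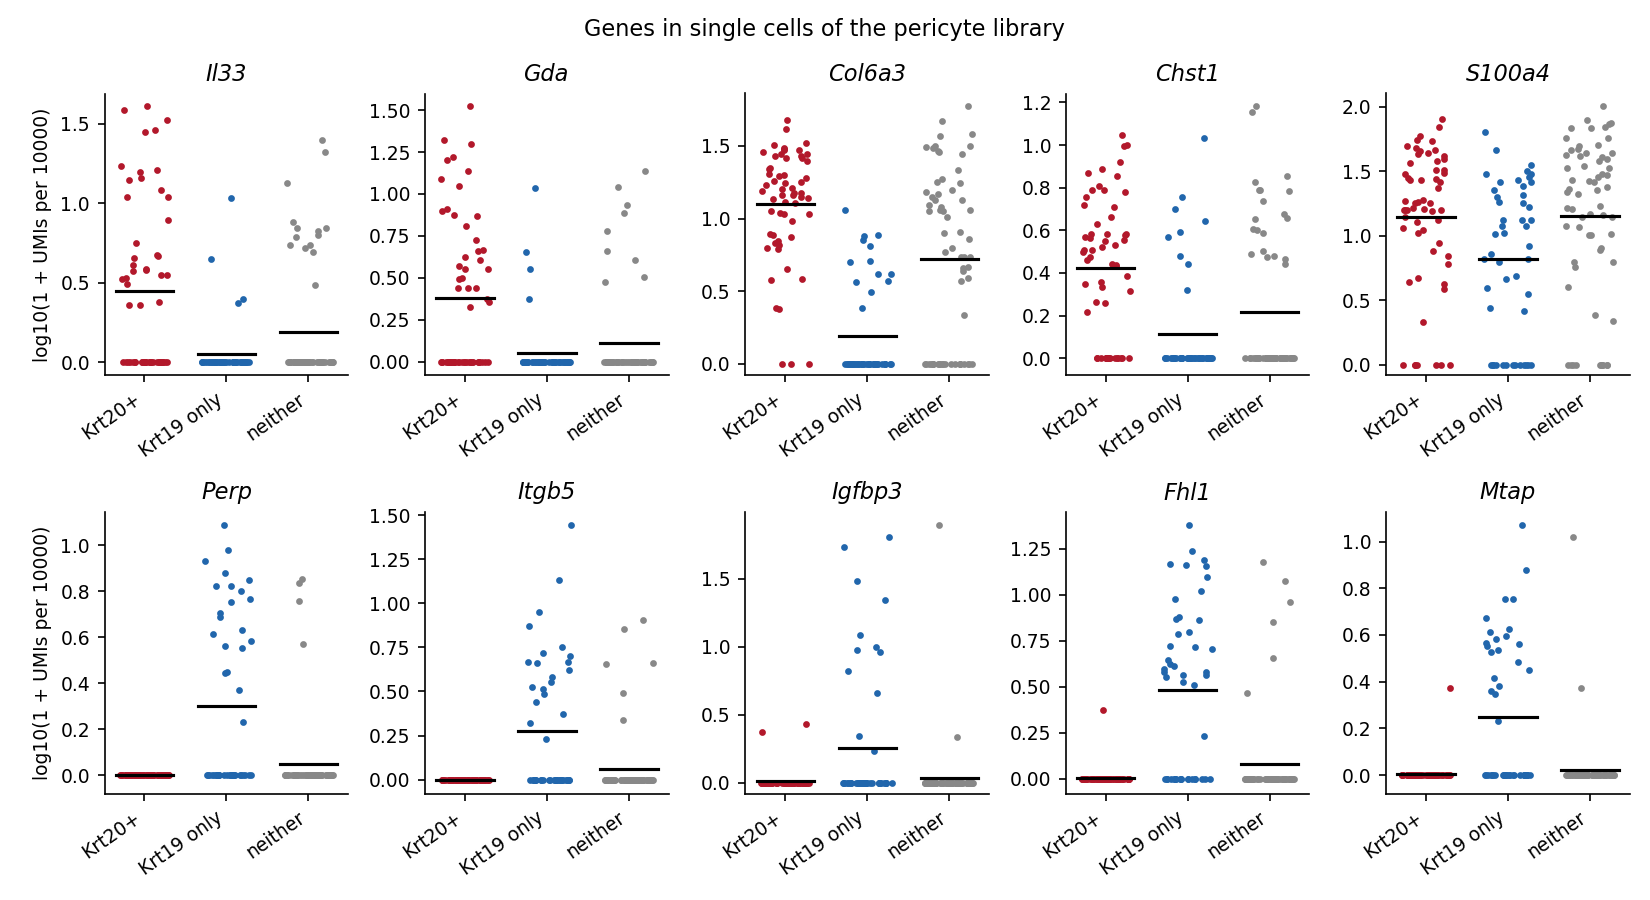
Per-cell values of 10 genes in the 59 Krt20-positive, 48 Krt19-only and 64 keratin-free cells of the pericyte library, as log10 of 1 plus UMIs per 10000 UMIs; each point is a cell and the black bar is the mean of the plotted values. Perp and Itgb5 lie at 0 in every Krt20-positive cell, while Il33 and Gda are spread over 30 and 29 of them and also over part of the cells with neither keratin.

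The cells with neither keratin were closer to Krt20-positive cells in some of these genes than in others. Of the 12 highest genes, 6 were also called higher in Krt20-positive cells than in cells with neither keratin (Il33, Gda, Fhl3, Lbh, Podxl and Ankrd1), and none lower. Il33 was at 661 CPM in all Krt20-positive cells and 324 CPM in cells with neither keratin (2.04-fold higher, 1.54 to 2.73), Gda at 322 CPM and 154 CPM (2.09-fold, 1.39 to 3.23), and Podxl at 115 CPM and 30.9 CPM (3.71-fold, 1.57 to 10.7). The first block held 22 of the 59 Krt20-positive cells and 11 of the 64 with neither keratin. In Krt20-positive cells Il33 was at 887 CPM in the first block and 561 CPM in the second, and Gda at 448 and 267 CPM. The part of the blocks in the ratios against cells with neither keratin was not tested. Col6a3, at 1504 CPM and 1235 CPM, Gpnmb, at 559.6 CPM and 468 CPM, and Chst1, at 224 CPM and 180.1 CPM, were not called. Nor was S100a4, at 2328 CPM in Krt20-positive cells and 2382 CPM in cells with neither keratin (ratio 0.978, 0.872 to 1.097). Of the 12 lowest genes, 5 were also called lower than in cells with neither keratin: Fhl1 (ratio 0.0265, 0.000640 to 0.166), Tfpi (2.55-fold), Cd24a (2.46-fold), Rnase4 (2.40-fold) and Lox (68.2 CPM and 149 CPM). Fhl1 was seen in only 6 of the 64 cells with neither keratin, and single cells held 8 and 7 of its 20 UMIs there. Perp, Itgb5, Igfbp3, Lbp and Arhgap36, with 9, 7, 7, 7 and 2 UMIs in the cells with neither keratin, were below the counts the call needs. Igfbp3 was seen in only 2 of those 64 cells and Arhgap36 in 1, so both were scarce there as well. Msln, at 71.0 CPM in Krt20-positive cells and 41.2 CPM in cells with neither keratin, was not called.

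Members with and without Krt19 were not alike in every gene. Il33 stood at 769 CPM in the 42 Krt20-positive cells without Krt19 and 386 CPM in the 17 with it, while Gda stood at 267 CPM without Krt19 and 463 CPM with it. Msln was at 45.7 CPM without Krt19 and 135 CPM with it, and the single Mtap UMI came from a cell with Krt19. Col6a3, at 1558 CPM and 1369 CPM, differed less between these cells, and Perp, Itgb5 and Arhgap36 were at 0 in both. Of the 17 cells with Krt19, 11 lay in the first block, against 11 of the 42 without it. By strength of Krt20, Gda was at 464 CPM in the 24 cells with 2 or more Krt20 UMIs and 173 CPM in the 35 cells with 1, and Il33 at 799.97 CPM and 514 CPM. The cells with more Krt20 were also deeper, with a median of 7206 UMIs against 4492.

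Genes ranked in 1 block were read out in the other, which the ranking had not used. Of the 12 highest in the second block, 9 were above a log2 ratio of 0 in the first, and of the 12 lowest, 12 were below it, with medians of 2.25 and -2.63 there against 2.45 and -3.89 in the block that chose them. Of the 12 highest in the first block, 10 were above 0 in the second, and of 9 lowest 7 were below it, with medians of 0.46 and -0.35. Among those 10, and picked after their values were seen, were Spp1, the secreted phosphoprotein osteopontin, with 3141 UMIs in Krt20-positive and 1187 UMIs in Krt19-only cells of the second block (log2 ratio 1.24), and Mgp, the matrix Gla protein that inhibits calcification, with 353 and 115 UMIs (1.45). These readings describe 2 sets of barcodes of 1 culture, and the first block holds only 6 pairs.

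Of 4671 genes with at least 10 UMIs in the Krt19-only cells, 8 had no UMI in the 59 Krt20-positive cells. After Perp, Itgb5 and Arhgap36 these were 9930013L23Rik (27 UMIs in Krt19-only cells), Mrap (14, an accessory protein of the melanocortin 2 receptor), Slc38a1 (14, a glutamine transporter), Ppl (12, the desmosomal plakin periplakin) and Cdkn2a (11). In the other direction, 17 of 6266 genes with at least 10 UMIs in Krt20-positive cells had none in Krt19-only cells, led by Enkd1 (21 UMIs). These genes, save for those ranked above, were picked after their values were seen. The Krt20-positive cells had more UMIs in all, so a 0 in them limits a level to 8.19 CPM and a 0 in Krt19-only cells to 13.3 CPM.

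Mtap, Cdkn2a and Cdkn2b, 3 neighbours on chromosome 4, were low together; this group was singled out after its values were seen. Mtap salvages methylthioadenosine from polyamine synthesis, Cdkn2a encodes the cell cycle inhibitors INK4A and ARF, and Cdkn2b encodes the related inhibitor INK4B; the genes lie in a row from 89137122 to 89311039. Mtap had 1 UMI in Krt20-positive cells, against 28 in Krt19-only cells and 3 in cells with neither keratin. Cdkn2a had 0 UMIs in Krt20-positive cells, against 11 and 1, and Cdkn2b 0, against 6 and 0. In the matched cells the ratio of Mtap was 0.0334 (0.000815 to 0.203), while Cdkn2a and Cdkn2b stayed below 50 CPM and were not measured. At least 1 UMI of these genes was in 1 of 59 Krt20-positive cells, 28 of 48 Krt19-only cells and 2 of 64 cells with neither keratin. The flanking genes were seen in both groups. Klhl9, a ubiquitin ligase adaptor, had 28 UMIs in Krt20-positive and 15 UMIs in Krt19-only cells, and Plaa, a ubiquitin-binding protein, 34 and 10. Mllt3 had 23 and 22, Gm12669 had 7 and 8, and Caap1 had 9 and 4.

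Every gene listed for a library had at least 1 UMI in it, and a gene of the pericyte library not listed for another was read as 0 there. That an unlisted gene had no UMI is an inference that no label states, so these 0s may be missing entries. Mtap, Cdkn2a and Cdkn2b were read as 0 in PC-2F and in PC-3F, where 3 UMIs correspond to 3.78 CPM and 6.97 CPM. MEF-2F held 12, 7 and 4 UMIs of them, MEF-3F held 40, 18 and 11, and MEF held 56, 19 and 64. Of the 8 genes at 0 in Krt20-positive cells, 5 were also at 0 in both PC-2F and PC-3F (Arhgap36, Mrap, Slc38a1, Ppl and Cdkn2a), and these are 5 of the 20 genes at 0 in both among all 4671 (0.428%). Other libraries lacked some of them too: 3 of the 8 were at 0 in MEF-2F and 3 in MEF-3F (Arhgap36, Mrap and Ppl), 2 in MEF (Mrap and Ppl) and 6 in pOPC. Itgb5, with 15 UMIs in PC-2F and 18 in PC-3F, was not among the 5. Krt20 and Krt19 were at 0 in both transduced pericyte libraries. RNA counts cannot tell a lost gene from a silent one, and which cells of the culture gave rise to the transduced libraries was not tested.

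**Figure D4:**
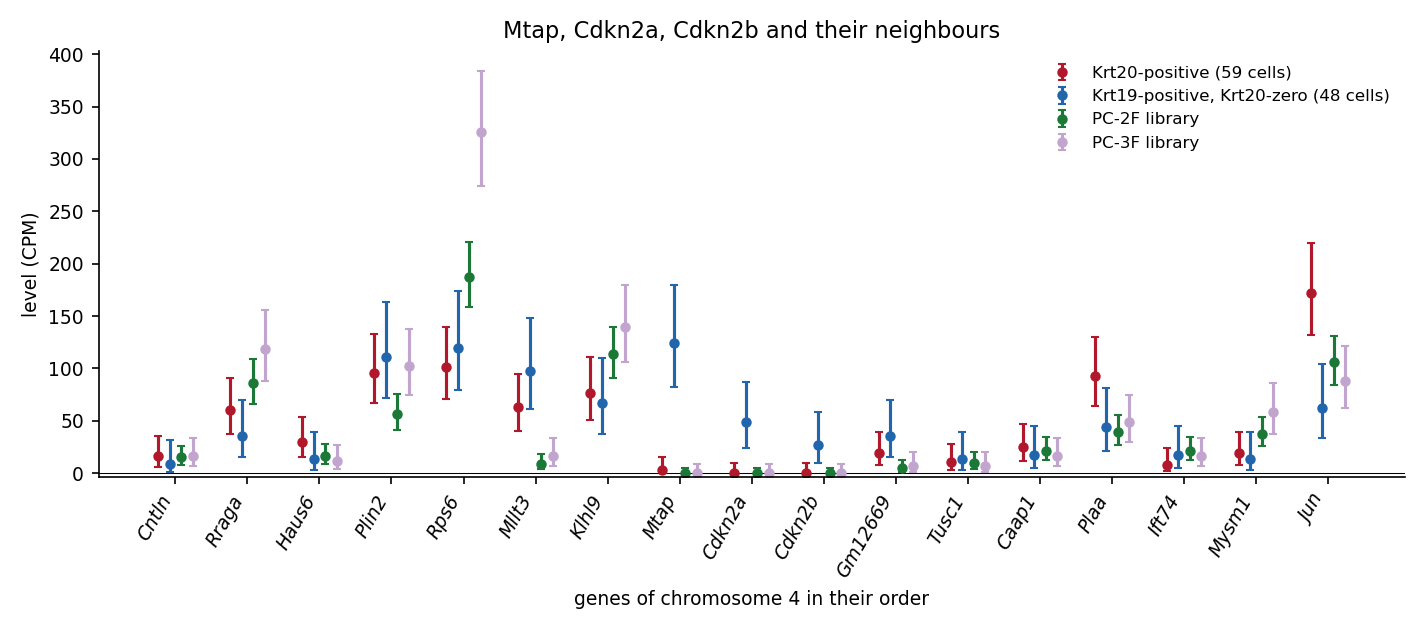
Levels (CPM, with exact Poisson 95% intervals) of Mtap, Cdkn2a, Cdkn2b and the genes beside them with at least 10 UMIs in the library, in their order on chromosome 4, in all 59 Krt20-positive cells, all 48 Krt19-only cells and the PC-2F and PC-3F libraries. The 3 genes are near 0 in Krt20-positive cells and not in Krt19-only cells, and were read as 0 in both transduced libraries. Genes on both sides are seen in all of these.

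As a check of the label, the pericyte markers were read in Krt20-positive and Krt19-only cells. Of 16 genes of the pericyte list 9 were in the table and 4 were measured; 2 were called higher and none lower, with a median log2 ratio of 0.85 against 0.05 over all genes, and the median was -0.68 in the 6 pairs of the first block. Pdgfrb, the receptor that pericytes need for recruitment to vessels, was in 41 of 59 Krt20-positive and 17 of 48 Krt19-only cells and stood at 337 CPM and 140.3 CPM in the matched cells (2.40-fold higher, 1.56 to 3.79). Cspg4, the NG2 proteoglycan, stood at 71.7 CPM (17 UMIs) in Krt20-positive and 18.7 CPM (4 UMIs) in Krt19-only cells (3.83-fold, 1.25 to 15.6), but its log2 ratio was -0.81 in the first block. Against cells with neither keratin the list's median was -0.49, with Pdgfrb at 382 CPM in Krt20-positive cells and 499 CPM in those. Acta2 and Tagln, the contractile proteins of smooth muscle, were at 33.7 CPM and 12.6 CPM in Krt20-positive cells and 42.1 CPM and 28.1 CPM in Krt19-only cells, too low to be measured. Of 7 measured contractile genes 1 was called higher and none lower, with a median of -0.22. It was Myl9, a myosin light chain, with 18 UMIs in Krt20-positive and 1 UMI in Krt19-only cells (ratio 16.2, 2.56 to 676), while the tropomyosin Tpm2 had a log2 ratio of -0.40.

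Markers of other cell types could be read only for the listed genes that are in the table, and the rest were not analysed here. Of 10 urothelial genes 2 were in it (Gata3 and Pparg), with a summed level of 101 CPM in Krt20-positive cells, 88.8 CPM in Krt19-only cells and 108 CPM in cells with neither keratin. Of 10 intestinal epithelial genes 2 were, summing to 35.5, 53.3 and 20.6 CPM in those groups, and of 6 Merkel cell genes 1 was, at 16.4, 0 and 5.14 CPM. Of 22 mesothelial genes 8 were in the table and 5 of these had UMIs in Krt20-positive cells. Their sum was 1641 CPM in Krt20-positive, 2441 CPM in Krt19-only and 1610.3 CPM in keratin-free cells; Efemp1, a matrix fibulin, alone stood at 1627 CPM in Krt20-positive and 1810.0 CPM in Krt19-only cells of the pairs. Of the 3 measured, Msln and Igfbp6 were called lower in Krt20-positive cells.

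Macrophage genes (3 of 10 in the table) summed to 10.9, 17.8 and 36.0 CPM in Krt20-positive, Krt19-only and keratin-free cells, and astrocyte genes (1 of 6) to 5.46, 0 and 0 CPM. Oligodendrocyte progenitor genes (2 of 7), by Pdgfra, summed to 115, 44.4 and 103 CPM, and endothelial genes (5 of 10) to 295, 209 and 349.8 CPM. Pecam1, which defines endothelium, had 1 UMI in each of the 3 groups. Neuronal genes (2 of 7), by Tubb3, a beta-tubulin, summed to 16.4, 129 and 25.7 CPM; Tubb3 was called lower, with 2 UMIs against 25 in the pairs (ratio 0.0721, 0.00828 to 0.289). Choroid plexus genes (2 of 8), by Aqp1, a water channel, summed to 109, 39.9 and 118 CPM; Aqp1 was called higher (3.60-fold, 1.70 to 8.51). The part of other cell types in the differences was not tested, and the cells are named here only by Krt20.

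Among the matrix genes, collagen VI chains were higher and collagen III and lysyl oxidase were lower. Of 17 measured genes of the fibroblast matrix list, 3 were called higher and 4 lower, with a median log2 ratio of 0.03. Col6a3 was joined by Col6a2, at 320.3 CPM in Krt20-positive and 98.2 CPM in Krt19-only cells (3.26-fold higher, 1.99 to 5.57), and by Col6a1 (683 and 224 CPM). Lox was joined by Col3a1, collagen III, at 75.9 CPM and 379 CPM (4.99-fold lower, 2.97 to 8.85), by Fbln2, fibulin 2 (717 and 1656 CPM), and by Loxl2, a lysyl oxidase homolog (33.7 and 84.2 CPM); Col6a1, Fbln2 and Loxl2 are named after their values were seen. Col1a1, at 590.1 CPM and 655 CPM, and Col1a2, at 2710.1 CPM and 2605 CPM, the chains of collagen I, were not called. None of 8 basement membrane genes was called, Nid1 among them with 1366 CPM and 2020.5 CPM. Of 16 proteases and inhibitors 3 were called higher, against 5.64% of all measured genes, and none lower: Plat, tissue plasminogen activator (181 and 70.2 CPM), Ctsk, the collagenolytic cathepsin K (135 and 60.8 CPM), and Mmp2, gelatinase A (683 and 313 CPM).

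The junction genes past the call were all lower, a call that 4.93% of all measured genes got. Of 7 measured genes of the junction list 4 were called lower and none higher, with a median of -1.54, and -0.73 against cells with neither keratin; it was -0.07 in the 6 pairs of the first block. Besides Perp they were Cdh2, N-cadherin (63.2 CPM in Krt20-positive and 187 CPM in Krt19-only cells), Cdh11, the mesenchymal OB-cadherin (16.9 and 84.2 CPM), and Cldn1, a claudin (2 and 12 UMIs). Of 12 integrins and matrix receptors 2 were higher and 2 lower. The low ones were Itgb5 and its partner Itgav (114 and 276 CPM; 2.42-fold lower, 1.51 to 3.98; its log2 ratio was 3.39 in the first block), and the high ones were the heparan sulfate proteoglycans Gpc1 (88.5 and 28.1 CPM) and Sdc4 (164 and 56.1 CPM). Of 9 measured sulfotransferases, the enzyme family of Chst1, 2 were higher and none lower, with a median of 0.54. Beside Chst1 this was Hs6st1, which sulfates heparan sulfate, at 194 CPM in Krt20-positive and 51.4 CPM in Krt19-only cells (3.77-fold, 1.92 to 8.07). Against cells with neither keratin the median of this list was -0.32.

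Beside Gda, Pfas and Ampd3 of the purine metabolism list passed the call. Of 17 measured genes 2 were higher, Gda and Pfas, an enzyme of purine synthesis (17 UMIs in Krt20-positive and 3 UMIs in Krt19-only cells), and 1 was lower, Ampd3, an AMP deaminase (25.3 and 126 CPM). The median was 0.22. None of 13 measured S100 and annexin genes, the wider family of S100a4, was called, and their median was -0.53. S100a11, a calcium-binding partner of annexins, was at 1058 CPM in Krt20-positive cells and 1904 CPM in Krt19-only cells. Of 13 measured genes of cholesterol synthesis 3 were higher, against 5.64% of all measured genes, and none lower, with a median of 0.24: Stard4, a sterol carrier (156 and 60.8 CPM), Insig1, a sterol sensor (173 and 74.8 CPM), and Lss, lanosterol synthase (194 and 93.5 CPM).

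Most cell cycle genes past the call were G2/M genes, all of them lower. Of 13 measured G1/S genes 1 was called higher, Mcm3 of the replicative helicase (164 CPM in Krt20-positive and 70.2 CPM in Krt19-only cells), and 1 lower, Rrm2 of ribonucleotide reductase (131 and 267 CPM), with a median of 0.42. Of 21 measured G2/M genes 4 were called lower and none higher, set against 4.93% of all genes called lower, with a median of -0.56. Among them were the spindle factor Tpx2 (92.7 and 243 CPM) and the mitotic cyclins Ccnb1 (118 and 253 CPM) and Ccnb2 (143 and 304 CPM). In the 6 pairs of the first block the G2/M median was 0.67, and against cells with neither keratin it was 0.37, with -0.30 for G1/S. Mki67, the proliferation antigen, was at 63.2 CPM in Krt20-positive and 98.2 CPM in Krt19-only cells and was not called (ratio 0.644, 0.309 to 1.31).

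Over all measured genes 4.93% were called lower. Of 11 measured p53 and senescence genes 3 were lower and none higher, with a median of -0.43. They were Igfbp3, Igfbp7, a secreted binding protein (316 CPM in Krt20-positive and 674 CPM in Krt19-only cells), and Trp53inp1, a p53-induced nuclear protein (1 and 11 UMIs). Ccng1, cyclin G, was at 573 and 1127 CPM, just short of the 2-fold call. Of 6 measured interferon and antigen presentation genes 3 were lower and none higher, with a median of -0.77. They were the class I heavy chains H2-D1 (46.4 and 154 CPM) and H2-K1 (54.8 and 164 CPM) and the antiviral membrane protein Ifitm3 (131 and 267 CPM). With cells thinned to 1000 UMIs the median of this list was 0.11. Of 8 inflammatory genes Il33 was the 1 called higher and none was called lower, with a median of -0.49; the chemokine Ccl7 stood at 143 and 262 CPM.

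The counts of signalling genes called stand beside 5.64% higher and 4.93% lower over all measured genes. Of 6 measured retinoic acid and Wnt genes, the secreted Wnt antagonist Dkk2 (19 UMIs in Krt20-positive and 2 UMIs in Krt19-only cells; ratio 8.56, 2.07 to 75.8) and the related Dkk3 (131 and 60.8 CPM) were higher, and 1 was lower. Of 12 TGF-beta and YAP targets, Tgfbi and Ankrd1 were higher and none was lower. Of 6 measured transition factors, Zeb2, a repressor of E-cadherin (101 and 37.4 CPM), and Prrx1, a mesenchymal homeobox factor (438 and 215 CPM), were higher. Of 14 immediate early and heat shock genes, Jun, a subunit of AP-1, was higher (160.2 and 65.5 CPM) and its partner Fos lower, with 0 UMIs in matched Krt20-positive cells against 12 in their partners (4.44-fold lower with 3 UMIs in place of 0). In glycolysis and hypoxia Pfkl, a phosphofructokinase (75.9 and 28.1 CPM), and Hk2, a hexokinase (12 and 2 UMIs), were higher of 16, and Adm was lower. Among 14 oxidative stress genes 3 were lower: Gclc, of glutathione synthesis (109.6 and 412 CPM), Cat, catalase (67.4 and 154 CPM), and Gstm2, a glutathione transferase (109.6 and 219.8 CPM). Among 3 measured leptomeningeal genes 1 was lower, the forkhead factor Foxc1 (92.7 and 295 CPM).

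**Figure D5:**
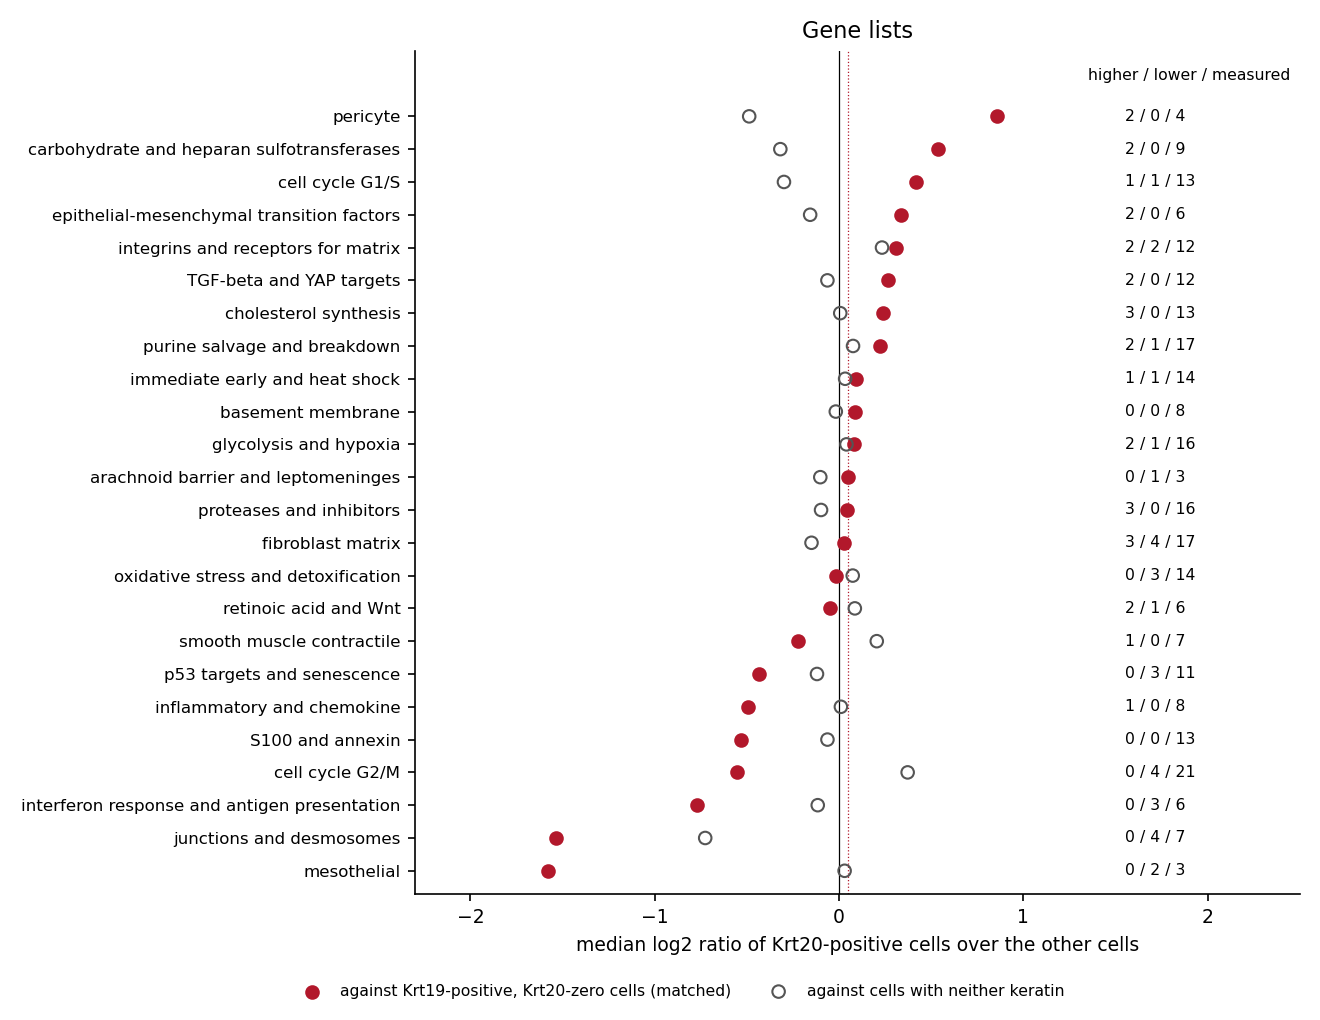
Median log2 ratio of each gene list with at least 3 measured members, for matched Krt20-positive over Krt19-only cells (filled circles) and for all Krt20-positive cells over cells with neither keratin (open circles); the dotted line is the median of all measured genes, 0.05, and the numbers give members called higher, called lower and measured. The mesothelial (-1.58) and junction (-1.54) lists lie lowest and the pericyte list (0.85) highest against Krt19-only cells.

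In the transduced pericyte libraries the 12 highest genes summed to 2512 CPM in PC-2F and 1892 CPM in PC-3F, against 1615 CPM in MEF. Gda was at 30.2 CPM in PC-2F and 16.3 CPM in PC-3F, Il33 at 162 CPM and 144 CPM, and Lbh at 453 CPM and 488 CPM. Of the 12 lowest genes, 2 had no UMI in PC-2F and 3 none in PC-3F, and they summed to 291 CPM and 214 CPM. These libraries differ from the pericyte culture in medium and in transduction, which cannot be told apart.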

How the data were processed

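The submitters' processing notes name STAR 2.5.3a, featureCounts 1.6.1 of Subread, UMI-tools 0.5.3, bcl2fastq 2.19.1.403 and the mm10 build. The deposited values are of another, unnamed kind and not UMI counts as they stand: here each was taken as a rank, starting at 0, among the different UMI counts of its barcode block after these had been sorted as text. That reading is an inference no label states, and the plan had taken the values for counts. Blocks were told apart where the alphabetical order of barcodes starts again. In the first block 95.9% of UMIs, and in the second 98.1%, came from values decoded with a probability above 0.99; in simulations that assume the reading 99.94% and 99.99% of non-zero entries were decoded exactly. Barcodes alike from base 4 on were counted as 1 cell, through the barcode with most UMIs; the plan had counted barcodes, and this step was added after the copies had been seen. Cells with 500 UMIs or more were kept, and no doublet caller was run. UMIs were summed without Krt19 and Krt20 and scaled to CPM over cells matched 1 to 1 with SciPy 1.17.1 (NumPy 2.4.6, pandas 2.3.3, Python 3.11.15). Log2 ratios add 0.5 UMIs to each sum. On simulated counts 96% of 200 genes changed 4-fold were called, and 2.5% of unchanged genes. These counts were drawn per group without variation between cells, so the share of false calls in the real data was not measured. Mitochondrial genes held 0.127% of UMIs in Krt20-positive and 0.102% in Krt19-only cells. The text names the 12 genes with the largest and the 12 with the smallest ratio among those that had 100 CPM and 30 UMIs in 1 group and went the same way in both blocks (mitochondrial, ribosomal and unnamed genes aside), up to 4 genes from each of 34 lists, and a set of markers; genes outside this rule are marked as chosen after their values were seen. Cells, members and lists were chosen with earlier results of these data known. Some members of the lists are not reported here. Coordinates are from GENCODE M21 (GRCm38). Total UMIs per library ran from 167054 in MEF-2F to 794180 in PC-2F, with 786413 in PC. The strand setting of the counting is not given in the sources used here. Alternatives are listed with their effect at the end.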

Additional observations from a re-analysis of the deposited data

How the results depend on the processing

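The counts of higher and lower genes, 279 and 244, moved by more than 1.5 times under 5 alternatives: 115 and 82 with 100 CPM and 30 UMIs, 88 and 84 with cells thinned to 1000 UMIs, 122 and 119 with only members that also had Krt19, 132 and 150 against all Krt20-zero cells, and 54 and 68 in the first block. Under the other alternatives that give such counts, they stayed within 1.5 times. Of these, with the median ratio set to 0 the split was 254 higher and 272 lower. With every barcode counted as deposited the counts were 323 and 281, and with the UMIs of copies summed 366 and 308, both alternatives chosen after seeing the data. The share of Krt20-positive cells was 12.3% after thinning, 14.04% with 2 or more Krt20 UMIs and 56.4% in the first block, against 34.5%; it was 34.1% of barcodes as deposited and 38.6% with copies summed. Il33 ran from 1.44 to 5.09 in log2 ratio and Perp from -7.78 to -3.98. Ratios under 17 alternatives were followed for 31 named genes, the ranked ones and the measured markers. Of these ratios 474 stayed close to the reported value, 51 moved and 2 called ones changed sign, both for Cspg4: -0.018 with only members that also had Krt19 and -0.81 in the first block. Genes named only from the other lists were not in this count, and some reversed too. Cdh2, called lower, had a log2 ratio of 0.42 in the first block, and Itgav, also called lower, was above 0 there. Of the list medians 396 stayed within the spread of their genes' ratios, 10 moved and 2 reversed, the pericyte list (-0.68) and the G2/M list (0.67), both in the first block with its 6 pairs. Counting also medians near 0, 16 of 24 changed sign under at least 1 alternative. The cause of these changes was not tested. The mean of CPM per cell gives no counts of calls. No paired analysis was possible because each population is 1 library, so no samples share a replicate number; the matching of cells was made within the library. Depth limits Krt20, since 35 of 59 members rest on 1 UMI.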

Other observations

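By chromosome, the median log2 ratio of Krt20-positive over Krt19-only cells was -0.23 on chromosome 9, with 9 genes higher and 19 lower of 248 measured, and 0.30 on chromosome 16, with 15 higher and 6 lower of 154. Chromosome 19, which holds Il33 and Gda, had 0.21, with 14 higher and 4 lower of 187. Against cells with neither keratin the medians were 0.02 on chromosome 9, 0.05 on chromosome 16 and 0.15 on chromosome 19.

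Genes chosen after their values were seen add single values. Thbd, thrombomodulin, had 20 UMIs in matched Krt20-positive cells and 1 in Krt19-only cells (ratio 18, 2.88 to 747). Bmp2, a bone morphogenetic protein, had 17 and 2 UMIs in those groups (ratio 7.66, 1.82 to 68.4). Cdk6, a kinase that the products of Cdkn2a and Cdkn2b inhibit, had 14 and 6 UMIs (ratio 2.10, 0.759 to 6.68), and Cdk4 had 116 and 106 (ratio 0.986, 0.751 to 1.30). Neither kinase gene was called. Cells with neither keratin also had Thbd and Bmp2. Thbd was at 90.1 CPM in all Krt20-positive cells and 66.9 CPM in cells with neither keratin, and Bmp2 at 87.4 and 82.3 CPM.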
